A study of Mus musculus with 49 samples.

Results

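Livers of mice that had received iron oxide nanoparticles were compared with livers of mice that had received saline, in 6 whole-organ (bulk) RNA-seq libraries out of 49 in the series. The members are the 3 bulk livers of the BP mice and the 3 bulk livers of the PBS mice, chosen by their column names, with each mouse giving 1 liver library. All 6 animals were HuHER2 transgenic mice, which carry human HER2, and all bore palpable mammary tumors. The promoter that drives the transgene is not given in the sources used here. BP is named by this code alone and was given as 1 intravenous dose of 5 mg Fe per mouse, while the controls received PBS, the buffer without particles. Animals were examined for tumors from 7 months of age, and their age at dosing is not given in the sources used here. The series' design text has the organs taken 7 days after treatment, whereas a treatment protocol label names 31 days. The other section of each BP liver was digested, and cells bound to nanoparticles were drawn out with a magnet, which gave 3 further libraries of nanoparticle-associated cells.

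The liver filters the blood. Particles that enter the circulation are taken up there mainly by Kupffer cells, the resident macrophages that line the sinusoids, and are passed to the lysosome, where iron oxide cores can be dissolved. Released iron is stored in ferritin or exported through ferroportin (Slc40a1), and hepatocytes answer a rise in iron with the hormone hepcidin (Hamp), which the BMP pathway controls. Macrophages with a heavy lysosomal or lipid load are known in several mouse tissues to express a shared set of genes that includes Gpnmb, Trem2, Cd63, Lgals3 and Lpl. Hepatocytes in the same organ make most plasma proteins, burn or synthesize fatty acids under the receptors PPARα and SREBP, and break down foreign compounds with cytochrome P450 enzymes.

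The libraries held the transcripts that define liver. The albumin transcript Alb, made by hepatocytes, was measured at 53897, 56160.0 and 71913 CPM in BP livers, against 78806, 59699 and 60084 CPM in PBS livers. CPM are counts scaled to library size and between libraries. Clec4f, a lectin of Kupffer cells, stood at 366, 457 and 286 CPM in BP livers, against 246, 278 and 279.6 CPM in PBS livers. Totals ran from 11828553 to 14966529 expected counts, and 17214 to 17724 genes were detected per library. A gene at 0 counts may hold up to 3, which is 0.195 to 0.276 CPM, for counting error alone. Mitochondrial transcripts made up 5.67 to 7.06% of the counts. PBS liver 3 stood apart in 3 gene groups described below, those of lung, cell cycle and interferon response, so results that rest on it are given without it too.

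The promoters of the 2 genes with the smallest p-values are shown because both genes rose in BP livers and both are known as macrophage genes. Each runs from 250 bases before the start of the RefSeq transcript to 50 bases after it (RefSeq, GRCm38.p6). Capitals mark motifs that a search of both strands found. Gpnmb lies at chr6:49036268-49036567 on the plus strand, and its capitals mark TGACTCA, a match to the AP-1 motif TGANTCA that begins 8 bases after the start. Lyz2 lies at chr10:117282223-117282522 on the minus strand, and its capitals mark AGGAAG and its reverse complement CTTCCT, the Ets core that PU.1, the macrophage regulator, shares with other Ets factors.
Gpnmb: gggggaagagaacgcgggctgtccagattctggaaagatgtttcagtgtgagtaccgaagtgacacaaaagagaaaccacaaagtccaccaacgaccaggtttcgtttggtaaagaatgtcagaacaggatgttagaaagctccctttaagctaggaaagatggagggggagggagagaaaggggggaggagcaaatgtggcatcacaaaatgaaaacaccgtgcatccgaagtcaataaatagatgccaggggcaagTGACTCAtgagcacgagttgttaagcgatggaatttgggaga
Lyz2: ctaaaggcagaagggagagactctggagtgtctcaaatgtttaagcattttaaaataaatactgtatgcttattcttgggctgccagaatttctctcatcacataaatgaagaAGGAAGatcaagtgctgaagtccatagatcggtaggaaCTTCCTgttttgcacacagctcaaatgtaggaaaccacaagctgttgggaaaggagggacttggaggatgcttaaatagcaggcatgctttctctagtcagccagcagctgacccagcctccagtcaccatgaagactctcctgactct

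Of all 32851 promoters of this length, 7.81% held TGANTCA and 35.4% held AGGAAG or CTTCCT, so the second match is common. AGGAAG was added to the search after the stricter PU.1 core GAGGAA had given no match in Lyz2. Among the 15 genes with the smallest p-values that were higher in BP livers, 11 had a promoter in the RefSeq table. GAGGAA stood in 7 of these 11 promoters and in 28.3% of all promoters. TGANTCA stood in 3 of them, and in 4 of 11 promoters of the genes with the smallest p-values that were lower in BP livers. CATGTG, an element read by the MITF and TFE lysosomal regulators, stood in 5 of them and in 14.2% of all promoters, while CACGTG stood in 0 of them and in 7.15% of all promoters. A match describes the letters in a window and nothing more.

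The genes Lyz2, Gpnmb and Vcam1, all known from macrophages, rose in BP livers, and 0 genes fell, among 12740 genes tested by edgeR's quasi-likelihood test. The 3 calls are 0.0235% of the genes tested, at an adjusted p under 0.05. Without adjustment, 454 genes (3.56%) had a p under 0.05, of which 270 (2.12%) were higher and 184 (1.44%) lower in BP livers. DESeq2 called 37 of 12738 genes (0.29%), 32 of them higher (0.251%) and 5 lower in BP livers. The CPM of the groups did not overlap for 1065 genes (8.36%), with 591 (4.64%) higher and 474 (3.72%) lower. The median log2 fold change over all genes tested was 0.00. In whole tissue, more cells of a type and more RNA per cell cannot be told apart.

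Lyz2, the lysozyme of macrophages and neutrophils, had the smallest p-value (chromosome 10, 117277331 to 117282321, minus strand). It stood at 258, 260.1 and 275 CPM in BP livers, against 100.1, 98.2 and 90.5 CPM in PBS livers. The groups were far apart and each was tight, with 264 ± 8.85 CPM in BP livers and 96.3 ± 5.09 CPM in PBS livers (SD, n = 3 each). The change was 2.75-fold, a log2 fold change of 1.46 ± 0.095 (standard error; edgeR adjusted p = 0.00109). Lyz2 remained called with each library left out, at an adjusted p of up to 0.0284, and lost the call when the spread was estimated over all 36 bulk libraries of the series (adjusted p = 1). Lyz1, the lysozyme of gut and lung epithelium, shares 15.4% of the 50-base stretches of Lyz2, so some reads could be divided between the pair. Lyz1 was scarce, at 4.16, 4.005 and 5.59 CPM in BP livers, against 1.10, 1.40 and 3.65 CPM in PBS livers.

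Gpnmb, a membrane glycoprotein of lysosome-rich macrophages, was nearly absent from PBS livers (chromosome 6, 49036546 to 49070929, plus strand). It gave 81, 62 and 136 counts in BP livers, against 3, 1 and 3 counts in PBS livers, and every BP liver lay far above every PBS liver. These counts are 6.13, 4.87 and 10.9 CPM in BP livers, against 0.276, 0.0780 and 0.195 CPM in PBS livers. The ratio of the summed counts was 40.5, with a lower exact (Clopper-Pearson) 95% bound of 19.4 that covers counting error alone. The fitted log2 fold change was 5.27 ± 0.50 (edgeR adjusted p = 0.0130). With under 10 counts in every PBS liver, Gpnmb entered the test through the BP livers, where it is high. The call was lost without PBS liver 1 (adjusted p = 0.0583) or PBS liver 2 (0.132) and with the spread over 36 libraries (0.0528), while the log2 fold change stayed between 4.86 and 5.597.

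Vcam1, an adhesion molecule of activated endothelium that Kupffer cells and splenic macrophages also carry, was the third gene (chromosome 3, 116109949 to 116129688, minus strand). It stood at 43.4, 56.6 and 38.0 CPM in BP livers, against 15.2, 17.4 and 18.8 CPM in PBS livers. The change was 2.68-fold, a log2 fold change of 1.42 ± 0.16 (edgeR adjusted p = 0.0432). The call was lost without BP liver 1 (adjusted p = 0.0905), BP liver 2 (0.102), PBS liver 1 (0.1063) or PBS liver 2 (0.298). It was also lost with the spread over 36 libraries (0.226) and with the replicate number as a block (0.0658). Of the 15 other adhesion genes tested, 9 were higher in BP livers, the median log2 fold change was 0.06 and the highest was 0.49. That highest member was Itgb2, the integrin chain shared by leukocytes (0.49 ± 0.17, adjusted p = 0.999).

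**Figure D1:**
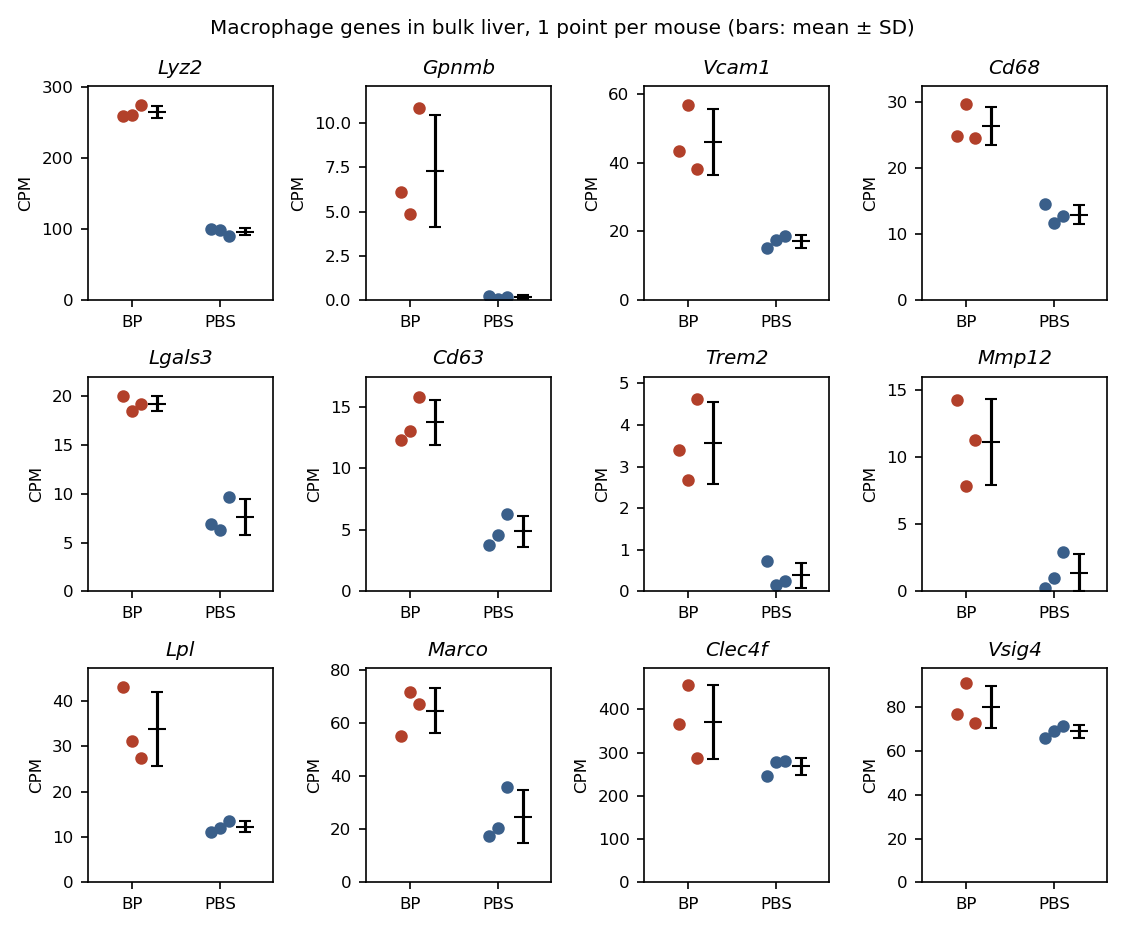
CPM of 12 macrophage genes in bulk liver, with BP mice left and PBS mice right, 1 point per mouse and bars for mean ± SD (n = 3). Lyz2, Gpnmb, Vcam1, Cd68, Lgals3, Cd63, Trem2, Mmp12, Lpl and Marco show every BP liver well above every PBS liver, while for Clec4f and Vsig4 the lowest BP liver lies just above the highest PBS liver.

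Several further genes known from macrophages had adjusted p-values just short of the threshold. Lpl, lipoprotein lipase, which macrophages and fat cells release, stood at 42.9, 31.0 and 27.4 CPM in BP livers, against 11.1, 12.0 and 13.5 CPM in PBS livers (log2 fold change 1.46 ± 0.18, edgeR adjusted p = 0.0575). Lgals3, the galectin of phagocytes, stood at 19.98, 18.5 and 19.2 CPM in BP livers, against 6.89, 6.24 and 9.70 CPM in PBS livers (1.33 ± 0.18, 0.0673). Cd68, a lysosomal glycoprotein of macrophages, stood at 24.8, 29.7 and 24.5 CPM in BP livers, against 14.5, 11.7 and 12.8 CPM in PBS livers (1.02 ± 0.14, 0.0673). Each of these had all 3 BP livers above all 3 PBS livers. Cd63, a tetraspanin of lysosomes and exosomes, had a log2 fold change of 1.48 ± 0.21 (adjusted p = 0.0809), and Wfdc17, a small secreted protein of activated macrophages, one of 1.21 ± 0.16 (0.0673). Leaving out 1 library moved these adjusted p-values to both sides of the threshold, with ranges of 0.0373 to 0.387 for Lpl, 0.0492 to 0.404 for Wfdc17, 0.0172 to 0.403 for Lgals3 and 0.0335 to 0.420 for Cd63. For Cd68 they stayed above it, at 0.0981 to 0.417. Lpl passed without BP liver 3 or PBS liver 3, Wfdc17 without BP liver 1, and Lgals3 and Cd63 without PBS liver 3.

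Trem2, the lipid receptor that marks lipid-associated macrophages, gave 45, 34 and 58 counts in BP livers, against 8, 2 and 4 counts in PBS livers. Like Gpnmb, it had under 10 counts in every PBS liver and so entered the test through the BP livers. Its log2 fold change was 3.26 ± 0.48 (edgeR adjusted p = 0.0932), and the ratio of summed counts was 9.94 with an exact 95% interval of 5.73 to 18.7. With 1 library left out, the log2 fold change of Trem2 ran from 2.90 without PBS liver 2 to 4.01 without PBS liver 1, at adjusted p-values of 0.106 to 0.420. Mmp12, the macrophage elastase, stood at 14.3, 7.85 and 11.3 CPM in BP livers, against 0.276, 1.01 and 2.93 CPM in PBS livers (2.89 ± 0.53, 0.201). PBS liver 3 was the highest of the controls for this gene. Without it the log2 fold change of Mmp12 was 4.04 (adjusted p = 0.0272), and with another library left out it was as low as 2.46 and the adjusted p as high as 0.825. Hpgds, the prostaglandin D synthase of blood-forming and antigen-presenting cells, stood at 4.69, 4.95 and 2.96 CPM in BP livers, against 0.918, 0.702 and 1.04 CPM in PBS livers (2.22 ± 0.32, 0.0809). Clec7a, the β-glucan receptor dectin-1, had a log2 fold change of 1.19 ± 0.21 (adjusted p = 0.200), and Fabp4, a lipid carrier of fat cells and macrophages, one of 1.71 ± 0.40 (0.607).

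Lysosome-rich and lipid-associated macrophage genes formed 1 of 41 lists examined. Of 25 genes, 22 were tested, 18 of them were higher and 4 lower in BP livers, and the median log2 fold change was 0.62 (0.53 to 0.68 with 1 library left out). Lung epithelium genes, described below, had a median of 0.57 (0.27 to 1.52). At an unadjusted p under 0.05, 12 of the 22 lysosome-rich and lipid-associated genes were higher and 0 lower, against 2.12% and 1.44% of all genes tested. Of the 22, 1 (Gpnmb) passed the adjusted threshold. The groups did not overlap for 12 of the 22, all higher in BP livers, against 4.64% of all genes tested in that direction. Of the 22, 3 (Gpnmb, Trem2 and Ms4a7) had under 10 counts in every PBS liver. They entered the test through the BP livers, and their count is a description. Over all genes tested, 50.2% were higher in BP livers. The summed level of the list, in CPM of the library total as for every sum given here unless named otherwise, shows a narrower gap than the counts do, at 830.4 to 1066 in BP livers against 751.3 to 778.5 in PBS livers. A large part of this sum is 1 member with overlapping groups, Plin2. In the CPM used for single genes, Plin2 stood at 298, 486 and 337 in BP livers, against 411, 349 and 324 in PBS livers.

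Broader macrophage genes were split by member. Of 24 tested, 21 were higher in BP livers, 12 of them at an unadjusted p under 0.05 and 1 (Lyz2) past the adjusted threshold, with a median log2 fold change of 0.35. Of the 12, Ms4a7 had under 10 counts in every PBS liver and so entered the test through the BP livers. Some general macrophage markers were near 0 or lower. Log2 fold changes were 0.01 ± 0.14 for Csf1r, the growth factor receptor of macrophages, and 0.08 ± 0.18 for Adgre1, which encodes F4/80. For Itgam, which encodes CD11b, it was -0.56 ± 0.32. Others were higher with groups that did not overlap, at 0.59 ± 0.18 for Tyrobp, 0.44 ± 0.13 for Ctss and 0.45 ± 0.18 for Spi1 (edgeR adjusted p = 0.999 each). The summed level of the list was 1276, 1438 and 1085 CPM in BP livers, against 711.8, 869.2 and 960.9 CPM in PBS livers. Without Lyz2 the sums overlapped, at 1009, 1164 and 817.0 CPM in BP livers, against 619.7, 772.4 and 868.0 CPM in PBS livers. Sirpa, the inhibitory receptor that reads CD47, stood at 57.4, 52.1 and 46.2 CPM in BP livers, against 28.4, 34.2 and 33.0 CPM in PBS livers (log2 fold change 0.70 ± 0.12, edgeR adjusted p = 0.183). C1qa, a chain of complement C1q made by macrophages, had a log2 fold change of 0.44 ± 0.12 (adjusted p = 0.938). Itgax of the lysosome-rich list, which encodes CD11c, stood at 2.88, 2.83 and 1.68 CPM in BP livers, against 0.918, 1.17 and 0.651 CPM in PBS livers (1.44 ± 0.36, 0.748).

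Lysosomal enzymes differed less than the marker genes above. Of 35 genes for lysosomal enzymes and membrane proteins, 23 were higher in BP livers, 7 at an unadjusted p under 0.05, and the median log2 fold change was 0.08. The highest was 1.48, that of Cd63, which is described above and counted among the 7. Ctsd, the aspartic protease cathepsin D, stood at 781, 811 and 778 CPM in BP livers, against 571, 609 and 535 CPM in PBS livers (0.47 ± 0.10, edgeR adjusted p = 0.417). Hexa, a subunit of β-hexosaminidase, had a log2 fold change of 0.67 ± 0.15 (adjusted p = 0.493), and Ctsb, the cysteine protease cathepsin B, one of 0.38 ± 0.11 (0.999). The 16 subunits of the proton pump that acidifies the lysosome had a median log2 fold change of 0.03, a range of -0.06 to 0.12, and 0 members at an unadjusted p under 0.05.

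Kupffer cell identity genes were split by member. Of 20 tested, 16 were higher in BP livers, 4 of them at an unadjusted p under 0.05, and the median log2 fold change was 0.19. Marco, a scavenger receptor that binds particles and bacteria, stood at 55.0, 71.6 and 67.0 CPM in BP livers, against 17.5, 20.5 and 36.004 CPM in PBS livers. Every BP liver was above every PBS liver, PBS liver 3 was the nearest of the controls, and the log2 fold change was 1.38 ± 0.24 (edgeR adjusted p = 0.1995). The adjusted p of Marco was 0.00682 without PBS liver 3 and 0.920 without BP liver 2, and the log2 fold change ran from 1.19 to 1.76 with 1 library left out. Fcna, ficolin-A, a soluble pattern receptor of these cells, stood at 105.2, 129.9 and 108 CPM in BP livers, against 66.6, 68.5 and 72.2 CPM in PBS livers (0.73 ± 0.11, 0.0964). Clec4f had a log2 fold change of 0.46 ± 0.16 (adjusted p = 0.999), Cd5l, a secreted regulator of macrophage survival, one of 0.55 ± 0.19 (0.999), and Vsig4, a complement receptor, one of 0.22 ± 0.11 (0.999). Timd4, which marks long-lived Kupffer cells, stood at 17.3, 22.4 and 15.7 CPM in BP livers, against 16.0, 16.2 and 19.1 CPM in PBS livers, with groups that overlapped.

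Markers of incoming and other blood cells were low and did not separate the groups as lists. Of 11 monocyte genes tested, 8 were higher in BP livers and 0 of these had an unadjusted p under 0.05, against 1 that was lower. Ly6c2 of inflammatory monocytes stood at 1.67, 1.41 and 1.04 CPM in BP livers, against 1.38, 1.72 and 1.11 CPM in PBS livers, and the groups overlapped. Ccr2, their chemokine receptor, stood at 1.89, 3.61 and 2.16 CPM in BP livers, against 1.93, 1.95 and 1.37 CPM in PBS livers. Of 12 neutrophil genes, 11 were lower in BP livers with 0 at an unadjusted p under 0.05, and their summed CPM was 70.51 to 92.6 in BP livers against 67.42 to 154.9 in PBS livers. S100a8, a calcium-binding protein of neutrophils, stood at 6.96, 10.1 and 6.15 CPM in BP livers, against 8.36, 12.2 and 6.58 CPM in PBS livers. T cell and natural killer genes (14 tested, median log2 fold change 0.10) and liver endothelium genes (20 tested, median 0.01) had 0 members at an unadjusted p under 0.05.

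Dendritic cell genes were higher in 8 of 10 cases (median log2 fold change 0.34), 3 of them at an unadjusted p under 0.05. Clec10a, a lectin of dendritic cells and macrophages, stood at 1.67, 1.73 and 1.76 CPM in BP livers, against 0.276, 1.01 and 0.781 CPM in PBS livers (1.27 ± 0.42, edgeR adjusted p = 0.999). Cd207, the lectin langerin, is not on the dendritic cell list and was lower in BP livers. It stood at 2.57, 2.91 and 5.27 CPM in BP livers, against 12.2, 12.9 and 8.46 CPM in PBS livers, with every BP liver below every PBS liver (-1.64 ± 0.29, 0.1995). Cd22, a B cell receptor of the Siglec family, had a log2 fold change of 1.10 ± 0.30 (adjusted p = 0.938), while the 13 tested B and plasma cell genes had a median of 0.05.

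No common direction was measured among iron genes. Of 33 iron and heme genes tested, 15 were higher and 18 lower in BP livers, 0 had an unadjusted p under 0.05, and the median log2 fold change was -0.03 (range -0.33 to 0.45). Fth1, the ferritin heavy chain, stood at 988, 1176 and 1132 CPM in BP livers, against 1089, 1014 and 1172 CPM in PBS livers. Ftl1, the ferritin light chain, stood at 4317, 4583 and 4701 CPM in BP livers, against 4448, 4180.4 and 5098 CPM in PBS livers. For both, the groups overlapped, with log2 fold changes of 0.01 ± 0.11 for Fth1 and -0.01 ± 0.12 for Ftl1. Ferritin is known to be controlled mainly at translation, so its transcript is a weak readout of stored iron. Tfrc, the transferrin receptor, whose transcript is known to be destabilized when iron is plentiful, stood at 7.42, 7.38 and 16.2 CPM in BP livers, against 6.98, 8.42 and 12.6 CPM in PBS livers. Slc40a1, the iron exporter ferroportin, stood at 452, 384 and 312 CPM in BP livers, against 399.8, 412 and 321 CPM in PBS livers. Hmox1, which opens heme to release its iron, stood at 51.6, 84.2 and 56.3 CPM in BP livers, against 46.5, 57.1 and 52.1 CPM in PBS livers, with BP liver 2 the highest (log2 fold change 0.30 ± 0.18, edgeR adjusted p = 0.999).

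Hepcidin itself had groups that overlapped, and the genes of its pathway had no common direction. Hamp stood at 2298, 1962 and 2496 CPM in BP livers, against 2179, 2252 and 2467 CPM in PBS livers, and its log2 fold change was -0.03 ± 0.13. Bmp6, the iron-sensing ligand of sinusoidal endothelium, had a log2 fold change of 0.20 ± 0.13. Its targets Id1 (-0.18 ± 0.18) and Smad6 (0.26 ± 0.14) had groups that overlapped. Hamp2, a second hepcidin gene of the mouse that is not thought to control iron, stood at 74.9, 116 and 232 CPM in BP livers, against 14.97, 56.3 and 47.5 CPM in PBS livers (1.83 ± 0.50, edgeR adjusted p = 0.953). It shares 11.2% of its 50-base stretches with Hamp. Atoh8, a transcription factor of the BMP pathway in liver, had a log2 fold change of 0.26 ± 0.11 with groups that did not overlap, and Fgl1, a secreted hepatocyte protein that lowers BMP signals, one of -0.61 ± 0.25 with overlap (edgeR adjusted p = 0.999 each). Of the 23 tested genes of this list, 11 were higher and 12 lower in BP livers, with 2 higher (Hamp2 and Atoh8) and 1 lower (Fgl1) at an unadjusted p under 0.05. The groups did not overlap for 3 of the 23 that were higher and 1 that was lower, against 4.64% and 3.72% of all genes tested.

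Defense against oxidants and metals showed no common direction. Of 28 NRF2 and ferroptosis defense genes, 14 were higher and 14 lower in BP livers, with 1 in each direction at an unadjusted p under 0.05. Nqo1, a quinone reductase and NRF2 target, had a log2 fold change of 0.35 ± 0.15 (edgeR adjusted p = 0.999), and Gpx4, which removes lipid peroxides, one of -0.08 ± 0.09. The metallothioneins Mt1 and Mt2, which bind zinc and copper, varied most between mice. Mt1 stood at 105.6, 312 and 167 CPM in BP livers, against 817, 281 and 159 CPM in PBS livers, and PBS liver 1 was the high one. Mt2 had a log2 fold change of -1.64 ± 1.03, which was 0.38 without PBS liver 1.

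**Figure D2:**
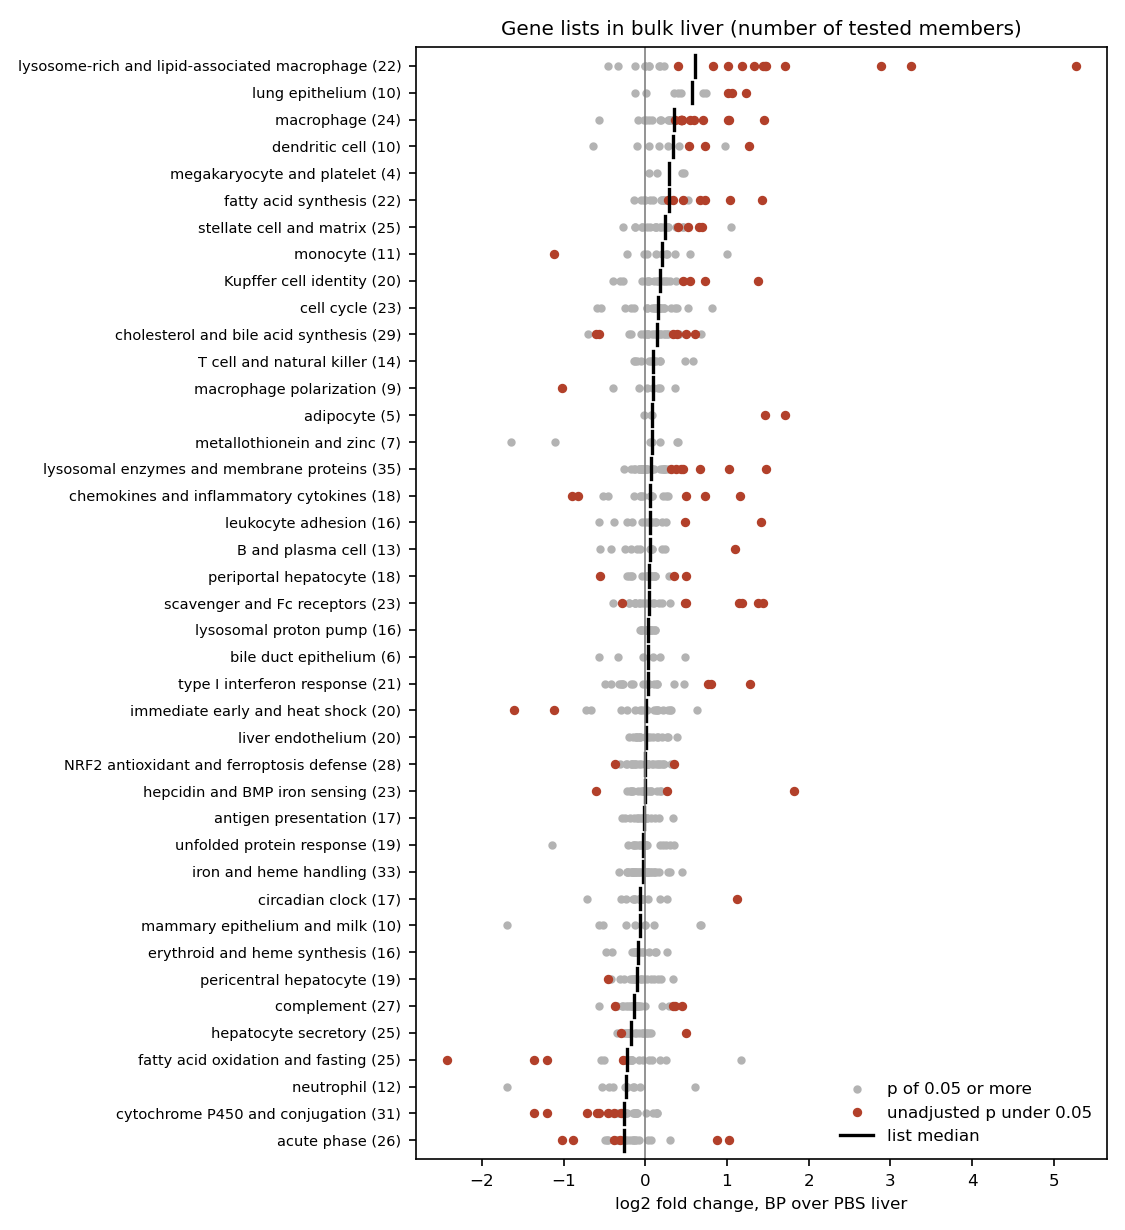
Log2 fold changes of BP over PBS livers for every tested member of 41 gene lists, ordered by list median (black bar), with members at an unadjusted edgeR p under 0.05 in red. Lysosome-rich macrophage genes reach 5.27 at the right, fatty acid oxidation genes reach -2.42 at the left, and the iron lists centre on 0.

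Genes of fatty acid use in hepatocytes led those that were lower in BP livers. Vnn1, the lower gene with the smallest p-value, a pantetheinase and one of the most responsive PPARα targets in mouse liver (chromosome 10, 23894688 to 23905343), stood at 3.48, 2.12 and 1.36 CPM in BP livers, against 15.7, 8.58 and 13.4 CPM in PBS livers. The highest BP liver lay well below the lowest PBS liver, and the log2 fold change was -2.42 ± 0.34 (edgeR adjusted p = 0.0809; DESeq2 1.87e-09). Cyp4a10, a fatty acid ω-hydroxylase (chromosome 4, 115518264 to 115533649), stood at 173, 149 and 116 CPM in BP livers, against 268, 305 and 435 CPM in PBS livers (-1.20 ± 0.20, 0.170). Its neighbor Cyp4a14 stood at 46.7, 28.4 and 56.4 CPM in BP livers, against 131, 83.5 and 123 CPM in PBS livers (-1.36 ± 0.25, 0.201). Neither pair of groups overlapped. Cyp4a32 had a log2 fold change of -0.79 ± 0.18 (adjusted p = 0.507) but shares 34.8% of its 50-base stretches with Cyp4a10, so that its counts are uncertain. Cyp4a14 shares 0% with Cyp4a10. Leaving out 1 library kept the edgeR adjusted p-values of Vnn1, Cyp4a10 and Cyp4a14 above the threshold. The ranges were 0.0856 to 0.477 for Vnn1, 0.1001 to 0.817 for Cyp4a10 and 0.234 to 0.565 for Cyp4a14.

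The fatty acid oxidation and fasting list as a whole had 25 genes tested, of which 20 were lower and 5 higher in BP livers, with a median log2 fold change of -0.22. It includes Vnn1, Cyp4a10 and Cyp4a14. Without these, 17 of 22 were lower and the median was -0.19. At an unadjusted edgeR p under 0.05, 1 of the 22 was lower and 0 were higher. The groups did not overlap for 6, all lower in BP livers, as they did for 3.72% of all genes tested in that direction. Igfbp1, a fasting-induced binding protein of insulin-like growth factors, was the highest member, with a log2 fold change of 1.17 ± 0.70 and overlapping groups (edgeR adjusted p = 0.999). Retsat, retinol saturase and also a PPARα target, stood at 319, 276 and 286 CPM in BP livers, against 379, 382 and 434 CPM in PBS livers (-0.44 ± 0.11, edgeR adjusted p = 0.669). Slc22a5, the carnitine importer, had a log2 fold change of -0.39 ± 0.11 (adjusted p = 0.963), and Cpt1a, which admits fatty acids to mitochondria, one of -0.20 ± 0.14 with overlapping groups.

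Fatty acid synthesis leaned the opposite way. Of 22 genes tested, 18 were higher in BP livers, 7 of them at an unadjusted p under 0.05, against 0 that were lower, and the median log2 fold change was 0.29. Acly, which makes cytosolic acetyl-CoA from citrate, stood at 246, 259 and 313 CPM in BP livers, against 169.8, 216 and 210.0 CPM in PBS livers (0.46 ± 0.13, edgeR adjusted p = 0.999). Scd2, a fatty acid desaturase, had a log2 fold change of 0.73 ± 0.22 (adjusted p = 0.999), and Acaca, acetyl-CoA carboxylase, one of 0.28 ± 0.11 (0.999). Scd1, the main liver desaturase, was uneven within the BP group, at 1371, 4186 and 3314 CPM in BP livers, against 1689.6, 1308 and 1315 CPM in PBS livers. BP liver 1 lay among the controls for this gene. Fasn, fatty acid synthase, stood at 806, 620.5 and 1088 CPM in BP livers, against 321, 656 and 605 CPM in PBS livers, with overlap. Pnpla3, a lipid droplet protein under SREBP-1c, stood at 4.24, 12.0 and 7.83 CPM in BP livers, against 0.551, 4.13 and 3.97 CPM in PBS livers.

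Sterol genes were split between synthesis and efflux. Insig1, the feedback sensor that SREBP itself induces, stood at 653, 736 and 809 CPM in BP livers, against 404, 578 and 455 CPM in PBS livers (0.61 ± 0.15, edgeR adjusted p = 0.678). Fdps, farnesyl diphosphate synthase, had a log2 fold change of 0.50 ± 0.15 and Sc5d, a late step of cholesterol synthesis, one of 0.39 ± 0.14, both at an adjusted p of 0.999 and both with groups that did not overlap. Abcg5 and Abcg8, the paired exporter that sends cholesterol to bile, had log2 fold changes of -0.57 ± 0.22 and -0.60 ± 0.26 with overlapping groups. Of the 29 tested genes of cholesterol and bile acid synthesis, 21 were higher in BP livers, 4 of them at an unadjusted p under 0.05, and 2 were lower at that level.

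**Figure D3:**
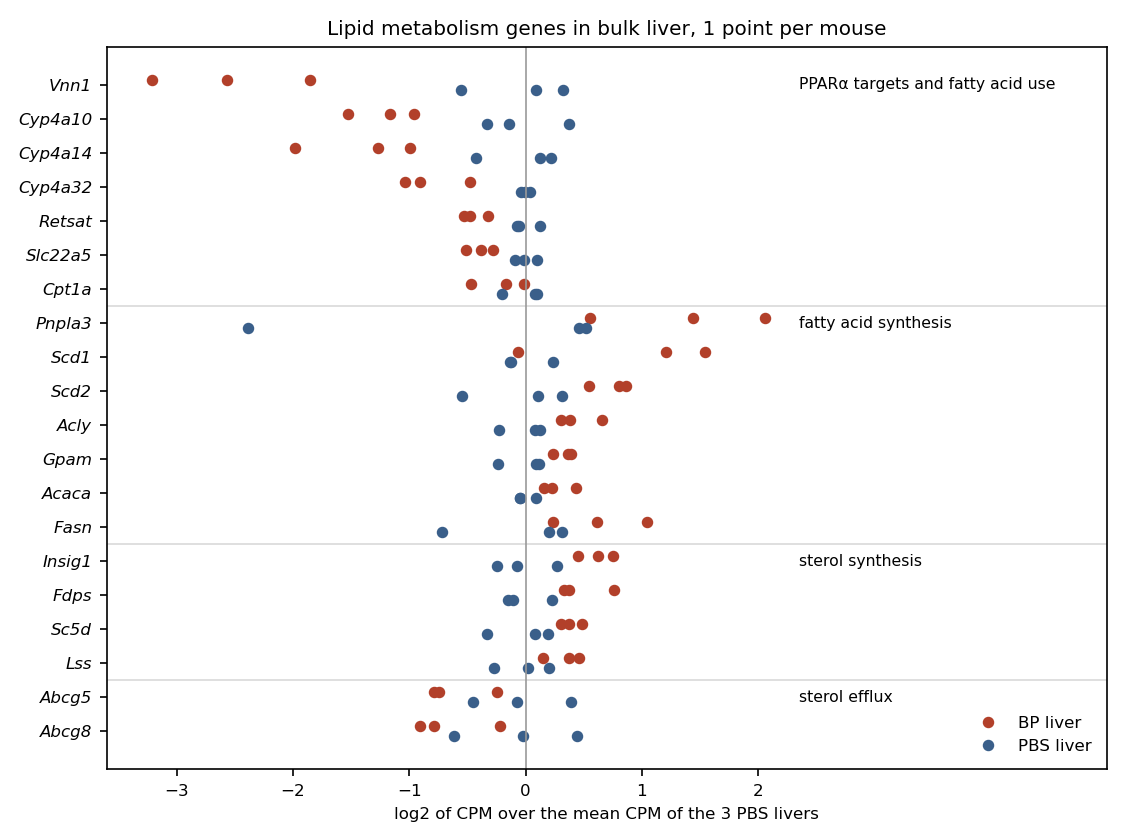
Log2 of CPM over the mean CPM of the 3 PBS livers for lipid genes, 1 point per mouse, BP in red above PBS in blue in each row. All BP points of Vnn1, Cyp4a10 and Cyp4a14 lie left of all PBS points, while those of Acly, Gpam, Insig1, Fdps and Sc5d lie right of theirs.

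Secreted and detoxifying functions of hepatocytes were mostly slightly lower. Of 31 cytochrome P450 and conjugation genes, 26 were lower in BP livers, 8 at an unadjusted p under 0.05 against 0 that were higher, and the median log2 fold change was -0.26. Cyp4a10 and Cyp4a14 stand in this list too. Cyp3a13 had a log2 fold change of -0.60 ± 0.18 and Nr1i3, the xenobiotic receptor CAR, one of -0.57 ± 0.18, both with groups that did not overlap and an edgeR adjusted p of 0.999. Cyp2e1, the ethanol-inducible P450 around the central vein, stood at 6213, 3994 and 5109 CPM in BP livers, against 8532, 6787 and 5771 CPM in PBS livers. Of 25 secreted hepatocyte proteins, 20 were lower in BP livers (median -0.17), and of 27 complement genes, 22 were lower (median -0.13). Without PBS liver 1, whose Alb was the highest, these 2 medians were -0.03 and -0.05.

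Acute phase genes were lower in 21 of 26 cases, with a median log2 fold change of -0.26 (-0.15 without PBS liver 1, -0.41 without PBS liver 3). The list was not uniform. Saa3, a serum amyloid A made by macrophages and fat cells, stood at 27.7, 15.5 and 18.0 CPM in BP livers, against 8.08, 8.27 and 13.5 CPM in PBS livers (1.02 ± 0.27, edgeR adjusted p = 0.807). Saa4 of hepatocytes stood at 278, 214 and 237 CPM in BP livers, against 367, 296 and 287 CPM in PBS livers (-0.38 ± 0.14, 0.999). Orm3, an α1-acid glycoprotein, had a log2 fold change of -0.89 ± 0.29 and Socs3, the feedback inhibitor of interleukin-6 signals, one of -1.02 ± 0.37, both with overlapping groups. Fos, an immediate early gene, had a log2 fold change of -1.60 ± 0.48 (adjusted p = 0.999).

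Stellate cell and matrix genes were higher in 20 of 25 cases, with a median log2 fold change of 0.24 and 4 at an unadjusted p under 0.05. Pdgfrb, the receptor that drives stellate cell growth, stood at 7.04, 7.22 and 6.95 CPM in BP livers, against 3.95, 5.15 and 4.04 CPM in PBS livers (0.69 ± 0.18, edgeR adjusted p = 0.923). Col1a1, the main fibrillar collagen of scars, stood at 3.94, 3.69 and 3.04 CPM in BP livers, against 1.93, 1.87 and 2.86 CPM in PBS livers (0.66 ± 0.27, 0.999). Neither pair of groups overlapped.

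Inflammatory signals were mixed. Of 18 chemokine and cytokine genes tested, 10 were higher and 8 lower in BP livers. Ccl6, a chemokine of macrophages, had a log2 fold change of 0.49 ± 0.16 and Cxcl1, which attracts neutrophils, one of -0.82 ± 0.32 (edgeR adjusted p = 0.999 each). Type I interferon response genes had a median log2 fold change of 0.03 and cell cycle genes one of 0.16. Both medians turned with the library left out. That of interferon genes was 0.51 without PBS liver 3, -0.18 without PBS liver 1, -0.15 without PBS liver 2 and -0.19 without BP liver 2. That of cell cycle genes was 1.00 without PBS liver 3, -0.05 without PBS liver 1 and -0.16 without PBS liver 2. The summed CPM of cell cycle genes was 526.2, 533.3 and 461.4 in BP livers, against 268.4, 337.8 and 641.0 in PBS livers, and that of interferon genes was 354.1, 417.8 and 280.9 in BP livers, against 249.8, 279.7 and 515.4 in PBS livers.

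Transcripts of lung epithelium were present at a low level in all 6 livers. Of the 14 genes of that list, 10 were tested and 9 were higher (median log2 fold change 0.57, and 1.52 without PBS liver 3 or 0.27 without PBS liver 2). Their summed CPM was 135.2, 121.1 and 168.0 in BP livers, against 63.06, 74.8 and 164.0 in PBS livers. Sftpc, surfactant protein C, stood at 0.116 to 0.272% of its level in the lung of the same mouse in BP livers, and at 0.0469 to 0.162% in PBS livers. If whole-lung RNA came with it, 7.92 to 14.1 CPM of Lyz2 would be carried into BP livers and 2.56 to 8.13 CPM into PBS livers. That is 2.89 to 5.27% of the Lyz2 level of BP livers, and the corresponding share was 0.772 to 0.896% for Gpnmb and 0.117 to 0.521% for Vcam1. For Lyz1 the share was 60.5 to 112.0% in BP livers and 77.6 to 152.0% in PBS livers.

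Spleens of the same mice, the other main site of particle clearance, offer a comparison. There 0 of 15195 genes passed edgeR's adjusted threshold, and 108 (0.711%) had an unadjusted p under 0.05. Gpnmb stood at 49.7, 13.2 and 27.99 CPM in BP spleens, against 10.6, 13.9 and 12.2 CPM in PBS spleens, a log2 fold change of 1.31 ± 0.43 with overlapping groups. Its control level there was far above that of PBS livers. The difference between the changes, liver minus spleen, was 4.10 ± 0.66 on the log2 scale (edgeR unadjusted p = 8.5e-05, adjusted p = 1). For Mmp12 that difference was 2.90 ± 0.54 (edgeR unadjusted p = 0.000268), for Trem2 3.41 ± 0.77 (0.00115), for Hpgds 1.964 ± 0.38 (0.000381) and for Marco 1.298 ± 0.27 (0.000642), each with an adjusted p of 1. Of 15811 genes, 0 passed the adjusted threshold for this difference and 239 (1.51%) had an unadjusted p under 0.05. DESeq2 called 2 of them, Gpnmb and Mmp12 (adjusted p = 0.00403 each), and edgeR without the filter on low counts called 3.

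**Figure D4:**
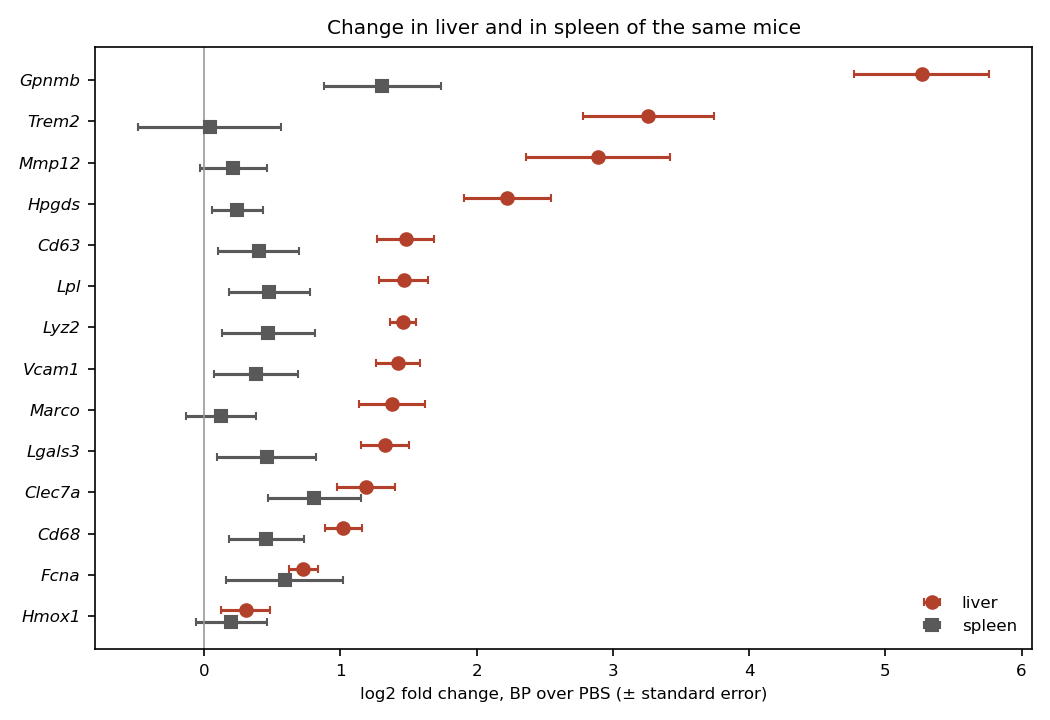
Log2 fold changes of BP over PBS (± standard error) for 14 macrophage genes in liver (red circles) and in spleen of the same mice (grey squares). Gpnmb stands at 5.27 in liver and 1.31 in spleen, and Clec7a, Fcna and Hmox1 have bars that overlap between the organs.

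Lyz2 and Vcam1 were already abundant in spleen. Lyz2 stood at 3179, 2453 and 2235 CPM in BP spleens, against 1121, 2284 and 2276 CPM in PBS spleens, and PBS spleen 1 was the low one. Vcam1 stood at 580.1, 458 and 419.8 CPM in BP spleens, against 217, 467 and 437 CPM in PBS spleens. The lung transcript Sftpc was measured there too, at 17.1, 33.1 and 109 CPM in BP spleens, against 0.168, 23.9 and 25.0 CPM in PBS spleens. The difference between the changes, liver minus spleen, was 0.93 ± 0.42 for Lyz2 and 0.97 ± 0.31 for Vcam1 (edgeR adjusted p = 1 each).

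The nanoparticle-associated liver cells show which of these transcripts were present in the fraction drawn out by the magnet. They were prepared by digestion and magnet, so their levels, given as CPM of the library total, are set beside bulk liver as a description and with no test. Mitochondrial transcripts held 48.2, 57.2 and 56.1% of their counts. Alb stood at 7952, 17050 and 12300 CPM in sorted cells, against 55770, 59190 and 70270 CPM in bulk liver of the same mice. Liver endothelium genes summed to 10490, 4712 and 8023 CPM in sorted cells, against 818.0, 918.2 and 678.4 CPM in bulk liver, so the sorted fraction was not of macrophages alone. Lung epithelium genes summed to 294.6, 215.4 and 13.56 CPM in sorted cells, against 135.2, 121.1 and 168.0 CPM in bulk BP liver. Their share in the other levels of the sorted cells was not tested.

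Lyz2 stood at 569, 231 and 194 CPM in sorted cells, against 267.5, 274 and 268 CPM in bulk BP liver. Gpnmb stood at 22.3, 2.96 and 6.96 CPM in sorted cells, against 6.34, 5.13 and 10.6 CPM in bulk BP liver. Both genes were thus present in the sorted fraction. On this scale the library of mouse 1 alone was above its bulk liver, and the order turns with the scale. As CPM of the non-mitochondrial counts, a scale added after the data were seen, Lyz2 stood at 1098, 539 and 441.6 in sorted cells, against 283.9, 290.6 and 288.7 in bulk BP liver. Gpnmb stood at 43.0, 6.92 and 15.9 on that scale in sorted cells, against 6.74, 5.44 and 11.4 in bulk BP liver, so all 3 sorted libraries were then above their bulk liver for both genes. Kupffer cell identity genes summed to 2927, 835.4 and 1137 CPM of the library total in sorted cells, against 2181, 2401 and 1674 in bulk BP liver. Their sums in non-mitochondrial counts were 5646, 1950.0 and 2592 CPM in sorted cells, against 2316, 2545 and 1801 CPM in bulk BP liver. For the sum, mouse 2 alone was then below its bulk liver, but members differed. Clec4f stood at 955.6, 241.7 and 205.3 on that scale in sorted cells, against 402.5, 510.1 and 301.0 in bulk BP liver. It was below bulk in mice 2 and 3, as were Vsig4 and Marco, whereas Cd5l was below in mouse 2 alone. As CPM of the library total, Vcam1 stood at 166, 60.6 and 85.6 in sorted cells, against 44.9, 59.7 and 37.2 in bulk BP liver. Hmox1, which did not separate the bulk groups, stood at 218, 74.3 and 118 CPM in sorted cells, against 53.4, 88.7 and 55.0 CPM in bulk BP liver. Monocyte genes summed to 409.0, 478.3 and 328.5 CPM in sorted cells, against 58.03, 79.28 and 49.58 CPM in bulk BP liver. A large part of the sorted sums was the immediate early gene Nr4a1, which is on that list. Nr4a1 alone stood at 181.1, 268.6 and 197.0 CPM in sorted cells, against 1.25, 1.74 and 0.781 CPM in bulk BP liver. The sums are therefore no measure of monocyte number. Itgax stood at 20.5, 12.4 and 11.1 CPM in sorted cells, against 2.98, 2.98 and 1.64 CPM in bulk BP liver. Cyp4a10 stood at 7.34, 12.1 and 7.22 CPM in sorted cells, far below its bulk level. Fos stood at 522, 353 and 338 CPM in sorted cells, against 0.627, 1.08 and 0.234 CPM in bulk BP liver, and is known to be induced by tissue digestion.

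**Figure D5:**
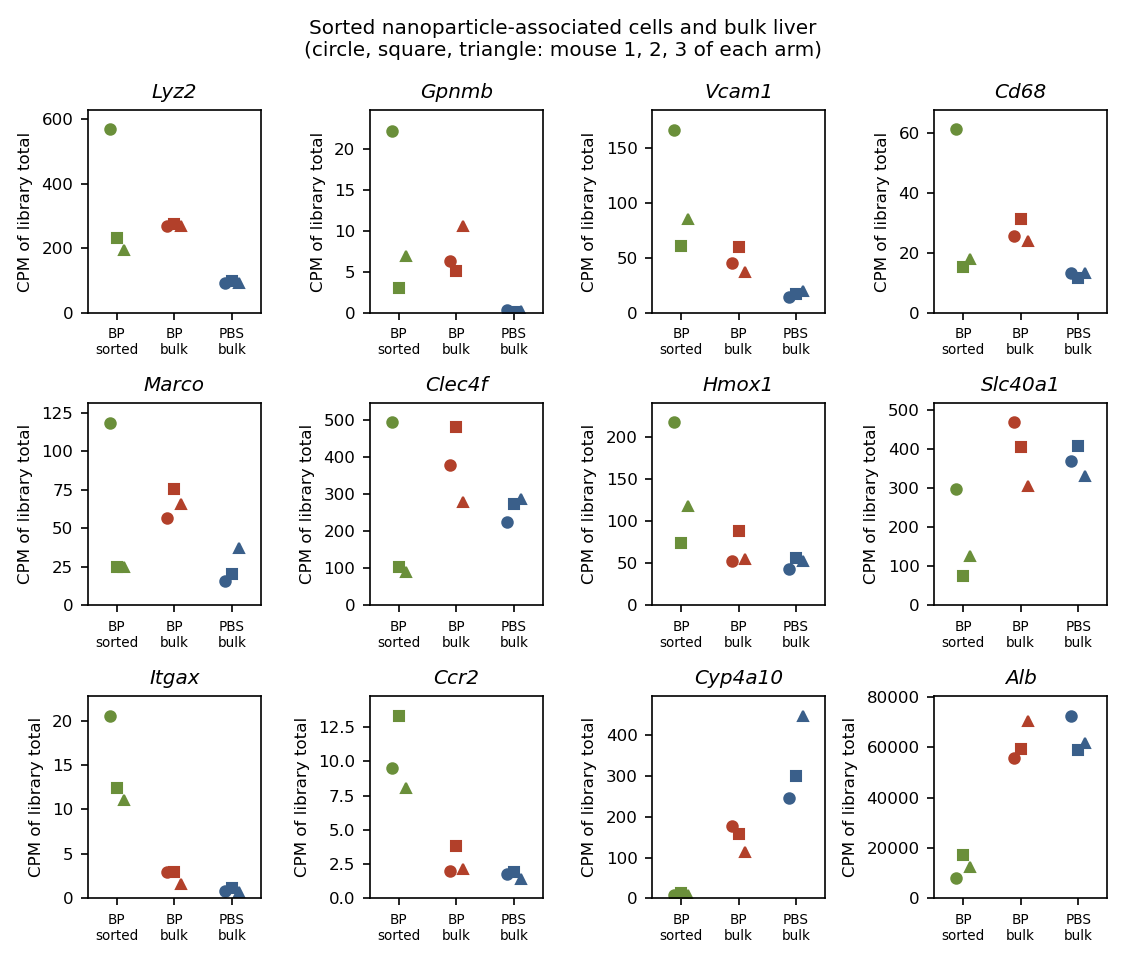
CPM of the library total of 12 genes in nanoparticle-associated cells of BP livers (left), bulk BP liver (middle) and bulk PBS liver (right), with circle, square and triangle for mouse 1, 2 and 3 of each arm. The sorted library of mouse 1 is the highest of the 3 for Lyz2, Gpnmb, Vcam1, Cd68, Marco, Clec4f, Hmox1, Slc40a1 and Itgax.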

How the data were processed

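The deposited table holds expected counts (estimated counts) per gene for 55487 genes, the unit that RSEM writes, as deposited. Per the submitters' processing notes, the tools were RSEM 1.3.1, STAR 2.7.9a, cutadapt 3.5 and FastQC 0.11.9, with mm10 as the build. Neither strand nor annotation release is given in the sources used here. Because reads shared by several genes are split by RSEM, 5.11 to 5.38% of values per liver were not whole, and close copies have uncertain counts.

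The 3 BP and 3 PBS livers alone entered the fit, on rounded counts (R 4.3.3). Genes were kept by filterByExpr at a minimum count of 10, libraries were scaled by TMM, and edgeR 4.0.16 gave two-sided quasi-likelihood tests. Adjustment was by Benjamini-Hochberg over every gene tested, with calls at an adjusted p under 0.05. CPM carry the TMM scaling of that fit unless named as CPM of the library total. Log2 fold changes are BP over PBS with their standard error. The liver and spleen comparison was an interaction in 1 fit of 12 libraries with the mouse as a block. DESeq2 1.42.0, other scaling, no filter, a robust fit, leaving out each library, and a spread shared over 36 bulk libraries were alternatives. The script was tested on simulated data. No 2 livers of a group were alike within sampling noise (chi-square per degree of freedom 14.3 to 46.7), and each came from another mouse.

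Gene positions come from GENCODE M21 (GRCm38, the assembly of mm10) and span whole genes. The lists and members were chosen with earlier results of these data known, so no list was tested. Named are the genes past the threshold, per direction the 15 smallest p-values among genes whose groups do not overlap and whose mean log2 CPM reaches 1, up to 5 members per list, and leading genes of each process. Of these only those a statement needs are printed. Igfbp1, Itgam, Ms4a7, Tyrobp, Spi1 and Amz1 fall outside this rule and were named after their values were seen.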

Additional observations from a re-analysis of the deposited data

How the results depend on the processing

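The number of genes called between BP and PBS livers was 3 in the edgeR fit reported and with DESeq2's size factors, 37 with DESeq2 (32 higher, 0.29% of 12738), 49 with no filter on low counts (39 higher, of 21518), 8 with a robust fit and 4 with the spread shared over 36 bulk libraries. These last 4 included 0 of the 3 called genes (adjusted p = 1 for Lyz2, 0.0528 for Gpnmb, 0.226 for Vcam1) and were Hpgds, Trem2, Gpr137b-ps and Amz1. The cause was not tested. With 1 library left out the count ran from 1 to 9: 8 without BP liver 3, 9 without PBS liver 3, and 1 without PBS liver 1 or PBS liver 2. Some genes not called in the edgeR fit reported were called both by DESeq2 and with no filter. Among them were Lpl, Cd68, Cd63, Lgals3 and Marco, higher in BP livers, and Vnn1 and Cyp4a10, lower in BP livers.

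Replicate numbers did not pair BP and PBS livers, whose deviations correlated at 0.037, -0.0936 and 0.0727 for equal numbers. A fit with the replicate number as a block called 3 genes, 2 of them, Lyz2 and Gpnmb, shared with the fit without it, while Vcam1 had an adjusted p of 0.0658 and Cyp4a14 one of 0.0156. For the liver and spleen difference the count was 0, against 2 with DESeq2 and 3 with no filter, and 0 with each mouse left out.

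Fth1 turned to -0.003381 with the shared spread. With 1 library left out, log2 fold changes near 0 crossed it for Timd4 (-0.0554 to 0.2075), Ly6c2 (-0.18 to 0.15), S100a8 (-0.4581 to 0.05109), Fth1 (-0.04473 to 0.07848), Ftl1 (-0.07711 to 0.07209), Tfrc (-0.35 to 0.42), Slc40a1 (-0.12 to 0.15), Hamp (-0.1113 to 0.05931), Mt2 (-2.99 to 0.38) and Alb (-0.2675 to 0.01999). Differences near the size of the standard errors were not detectable with 3 mice a group. Differences of several standard errors also went uncalled by edgeR, such as log2 fold changes of 1.46 ± 0.18 for Lpl and 0.69 ± 0.18 for Pdgfrb. A gene without a call can therefore still differ. Genes near 0.276 CPM rest on 3 counts.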
